A study of Mus musculus with 6 samples.

Results

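Regulatory T cells (Treg cells) are CD4 T cells that depend on the transcription factor Foxp3, and in the colon they restrain responses to the gut flora and help to repair the tissue. The baseline described here is that of the WT group, 3 of the 6 libraries of the series, chosen by their labels alone. The mice were untreated C57/BL6 animals of genotype Foxp3YFP-Cre, which carry a YFP-tagged Cre recombinase under control of the Foxp3 gene and no floxed Il23r allele. Live CD45+ CD4+ Foxp3+ cells were sorted from colonic lamina propria, and cells of 5 or more mice were pooled for each library, so the spread given below is between pools of mice. Age and sex are not given in the labels. RNA was amplified with the Ovation RNASeq System V2 kit before library preparation, per the labels' protocols. The other group of the series, with floxed Il23r alleles, was not analysed here, and no contrast was tested.

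The totals were 10201105 estimated counts in WT1, 9680503 in WT2 and 18734331 in WT3. WT1 was sorted in batch A, and WT2 and WT3 in batch B. The RNA integrity number was 8.2 in WT1, 5 in WT2 and 8.3 in WT3. Neither the batch nor the low integrity of WT2 is replicated within the group, so their part in any difference between pools cannot be told apart from that of the mice. Of 32090 genes, 10162 had at least 10 counts in each pool and 16877 had a count in any pool. Levels are given as CPM, the counts of a gene divided by the total of its library and scaled to 1000000. Between genes they are given as CPM per kb, the CPM divided by the length of the longest transcript in kilobases, because a long transcript yields more fragments at the same number of molecules. In bulk RNA a level shared by all cells and a high level in a few cells cannot be told apart, nor can fewer cells of a type and less RNA per cell.

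The defining genes of the labelled cell type were read first. The sort selected for the products of Foxp3, Cd4 and Ptprc, so these are no independent check of the label. No other cell type was compared. Foxp3, the lineage factor, stood at 1439, 569 and 1108 CPM across WT1, WT2 and WT3. Its lowest value, in WT2, was a factor of 2.53 below that in WT1. Ctla4, the inhibitory receptor by which Treg cells strip costimulatory ligands from other cells, was at 3228, 2433 and 2763 CPM. The anti-inflammatory cytokine gene Il10 stood at 1519.5, 1051 and 1307 CPM, Ikzf2, which encodes Helios, at 962, 1359 and 799 CPM, and Gata3 at 692, 606 and 618 CPM. Of these 5, Foxp3 differed most between pools. The pan-leukocyte gene Ptprc, at 1414, 1565 and 1308 CPM, the T cell receptor subunit gene Cd3e, at 1134, 1256 and 1189 CPM, and the coreceptor gene Cd4, at 837, 781 and 866 CPM, varied less than Foxp3. Cd8a, the coreceptor of CD8 T cells, had 22, 0 and 1 counts. Il2ra, the high-affinity chain of the interleukin-2 receptor, stood at 772, 1179 and 874 CPM.

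The most abundant row of the table was not a messenger RNA. Rn18s-rs5, annotated as a pseudogene related to 18S ribosomal RNA, took 14.2, 9.86 and 19.2% of all counts in WT1, WT2 and WT3, a range of 1.95-fold from WT2 to WT3. Because CPM is a share of the total, this row lowers all other CPM values most in WT3. With it left out, 577, 508 and 535 genes held 50% of the counts, against 361, 366 and 266 with it. Another pair of rows ran in the same order as Rn18s-rs5. Lars2, the gene of mitochondrial leucyl-tRNA synthetase, was at 4508, 3708 and 5965 CPM, and Mir6236, a microRNA annotation of 123 bases, at 522, 112 and 550.3 CPM. Both were highest in WT3 and lowest in WT2. Whether these reads come from ribosomal RNA was not tested, and neither row is read below as expression of the named gene.

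**Figure D1:**
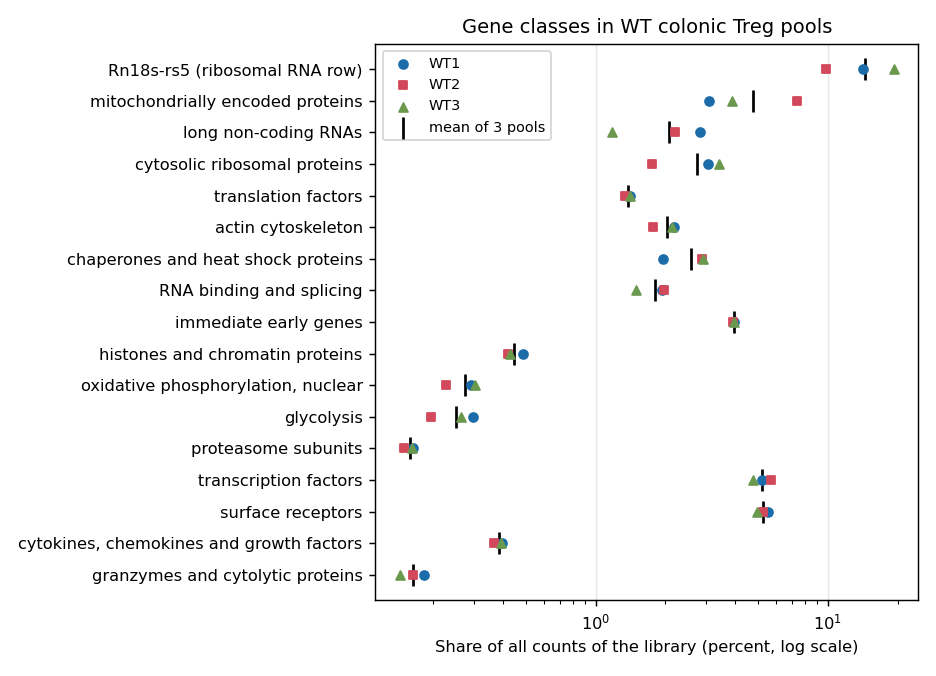
Share of all counts of each WT library (percent, log scale) taken by gene classes, with 1 symbol per pool and a bar at the mean of the 3 pools. Mitochondrially encoded genes are highest in WT2 and ribosomal protein genes lowest, while immediate early genes take 3.95, 3.89 and 3.95% in WT1, WT2 and WT3.

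Per length, transcripts of the mitochondrial genome stood highest of the messenger RNA classes listed, with a median of 2084 CPM per kb. The 13 mitochondrially encoded protein genes, all subunits of the respiratory chain or of ATP synthase, took 3.07, 7.39 and 3.87% of the counts in WT1, WT2 and WT3. The larger lists of immediate early genes, transcription factors and surface receptors each took a higher share in WT1 and WT3. COX1, the catalytic subunit of cytochrome c oxidase, was first of all genes per length, at 11348, 30801 and 13569.5 CPM per kb. COX2 of the same enzyme stood at 2303, 3439 and 2771 CPM per kb, and CYTB, the cytochrome b of complex III, at 2007, 3755 and 2581 CPM per kb. All 13 were highest in WT2, and 12 of the 13 were lowest in WT1. Among all 9334 genes of mean CPM at least 5, 3561 were highest in WT2. The non-coding nuclear RNA Malat1 stood at 3811, 2912 and 1483 CPM per kb, highest in WT1 and lowest in WT3.

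The 80 cytosolic ribosomal protein genes took 3.05, 1.75 and 3.39% of the counts, and each of the 80 had at least 10 counts in every pool. Their median level was 347 CPM per kb. Rpl41, which encodes the shortest ribosomal protein, led the class at 1874, 1108 and 1823 CPM per kb in WT1, WT2 and WT3, followed by Rplp1 at 981, 645 and 1378 and Rpl13 at 1174, 406 and 1370.0 CPM per kb. These 3 were lowest in WT2, as were 74 of the 80, against 3314 of all 9334 genes of mean CPM at least 5. Ribosomal protein genes have many processed pseudogenes, which could share their reads. The nuclear-encoded subunits of oxidative phosphorylation took 0.292, 0.228 and 0.303% of the counts with 75 genes, far less than the 13 mitochondrial ones. Their median level was 22 CPM per kb, and the highest were Atp5b at 228, 224 and 294, Cox6a1 at 222, 94.1 and 216 and Atp5d at 131, 101 and 142 CPM per kb.

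Cytoskeletal and protein-handling genes followed. Actb, the cytoplasmic beta actin, was at 1763, 1863 and 1824 CPM per kb, with a highest pool only 1.06-fold above the lowest. Tmsb4x, the actin-sequestering thymosin beta 4, stood at 1685, 1118 and 1786 CPM per kb and Pfn1, profilin 1, at 787, 254 and 623 CPM per kb, both lowest in WT2. The 41 actin cytoskeleton genes took 2.17, 1.76 and 2.14% of the counts. Eef1a1, the elongation factor that brings aminoacyl-tRNA to the ribosome, stood at 1501, 1546 and 1698 CPM per kb and Pabpc1, the cytoplasmic poly(A)-binding protein, at 699, 733 and 676 CPM per kb. Eef2, the translocation factor, was at 561, 312 and 559.8 CPM per kb. Gapdh, often used as a reference gene, was less even than Actb, at 886, 481 and 895 CPM per kb, and led the glycolysis genes before Ldha, at 211, 151 and 182, and Aldoa, at 137, 94.9 and 95.9 CPM per kb. The 18 glycolysis genes together took 0.296, 0.195 and 0.264% of the counts.

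The 35 chaperone genes took 1.95, 2.86 and 2.89% of the counts. Hspa8, the constitutive cytosolic HSP70, stood at 1154, 2283 and 2196 CPM per kb in WT1, WT2 and WT3. Hsp90ab1 and Hsp90aa1, the constitutive and the inducible cytosolic HSP90, stood at 916, 1186 and 1349 and at 615, 1354 and 1224 CPM per kb. WT1, the pool of sort batch A, was lowest in all 3 genes, and in 22 of the 35 chaperones, against 2444 of all 9334 genes of mean CPM at least 5. The stress-induced genes Hspa1a and Hspa1b, near-identical copies whose reads cannot be split with certainty, was at 1380.0, 2039 and 2668 and at 960.1, 1983 and 2143 CPM, also lowest in WT1. Among RNA-binding genes, the splicing factor gene Srsf5 led at 1033, 811 and 597 CPM per kb, then the helicase gene Ddx5 at 589, 805 and 534 and Hnrnpa2b1 at 344, 317 and 304 CPM per kb. Of chromatin genes, H2az1, a histone variant, stood at 896, 943 and 572, the acidic nuclear protein gene Ptma at 410.0, 343 and 411 and Npm1, nucleophosmin, at 277, 258 and 257 CPM per kb. The 36 proteasome genes were lower, with a median of 27.0 CPM per kb, and were led by the interferon-inducible activator subunit Psme1 at 152, 71.8 and 142 CPM per kb.

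The list of immediate early genes took 3.95, 3.89 and 3.95% of the counts. T cells switch on many of these genes rapidly after receptor signalling or stress without new protein synthesis. Klf2 is on this list and also on that of the resting T cell genes. All 45 had at least 10 counts in every pool, against 10162 of all 32090 genes. Their median level was 180.0 CPM per kb. The median was 13.7 CPM per kb for all 303 transcription factors and 22.9 for those with at least 10 counts in every pool. The immediate early list was chosen with earlier results of these data known, so its level is a description and no test. Dusp1, a phosphatase of MAP kinases, stood at 2285, 1189.7 and 2512 CPM per kb, lowest in WT2. Zfp36l1, which promotes decay of AU-rich messenger RNAs, was at 1268, 1016 and 1298 CPM per kb. Tnfaip3, which encodes the NF-kB inhibitor A20, stood at 1213, 1427 and 911 CPM per kb. Cell isolation can induce such genes and heat shock genes, and its part here was not tested, since every pool was sorted.

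The starts of Fosb, Klf6, Fos and Foxp3 are shown because the first 3 are immediate early factors among the 4 highest factors and Foxp3 defines the cells. Each sequence holds the 250 bases before a RefSeq start, build GRCm38.p6, written from 5′ to 3′ on the gene's strand. Fosb lies at chr7:19310046-19310295 on the minus strand. Klf6 at chr13:5861239-5861488, Fos at chr12:85473640-85473889 and both windows of Foxp3, at chrX:7579426-7579675 and chrX:7580233-7580482, lie on the plus strand. Capitals mark matches to any of 5 motifs, searched on both strands and named after the sequences.
Fosb: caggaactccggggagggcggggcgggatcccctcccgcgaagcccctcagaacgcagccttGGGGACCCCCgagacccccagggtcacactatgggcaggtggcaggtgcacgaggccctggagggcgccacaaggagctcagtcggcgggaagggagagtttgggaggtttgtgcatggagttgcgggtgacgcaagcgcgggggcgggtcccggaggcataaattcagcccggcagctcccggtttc
Klf6: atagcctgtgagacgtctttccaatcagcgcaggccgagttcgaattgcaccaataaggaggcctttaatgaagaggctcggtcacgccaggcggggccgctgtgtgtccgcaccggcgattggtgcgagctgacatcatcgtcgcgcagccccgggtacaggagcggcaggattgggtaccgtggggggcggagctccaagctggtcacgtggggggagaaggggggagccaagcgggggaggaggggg
Fos: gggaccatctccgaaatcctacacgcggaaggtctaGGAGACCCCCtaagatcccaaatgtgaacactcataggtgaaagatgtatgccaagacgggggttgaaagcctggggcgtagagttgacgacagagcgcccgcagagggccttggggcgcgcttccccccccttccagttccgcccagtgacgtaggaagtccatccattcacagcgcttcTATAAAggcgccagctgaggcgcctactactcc
Foxp3, first start: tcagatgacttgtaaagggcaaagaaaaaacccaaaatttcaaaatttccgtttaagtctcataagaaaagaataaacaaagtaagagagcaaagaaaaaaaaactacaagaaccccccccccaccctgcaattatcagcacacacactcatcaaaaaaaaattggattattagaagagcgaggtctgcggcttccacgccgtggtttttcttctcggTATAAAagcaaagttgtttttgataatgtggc
Foxp3, second start: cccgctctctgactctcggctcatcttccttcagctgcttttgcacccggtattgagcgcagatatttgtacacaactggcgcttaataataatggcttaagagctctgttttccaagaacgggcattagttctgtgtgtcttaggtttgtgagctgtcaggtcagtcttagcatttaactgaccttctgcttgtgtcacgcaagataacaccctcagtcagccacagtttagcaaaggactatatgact
Fosb and Fos each held 1 match to the kappa B site, and Fos and the first window of Foxp3 each held 1 TATAAA. The windows of Klf6 and of the second start of Foxp3 held none of the 5 motifs. RefSeq gave a window for 35 of the 45 immediate early genes and for 7458 genes of mean CPM at least 5, and a gene counts where any of its windows holds the motif. The cyclic AMP response element TGACGTCA was in 4 of the 35 genes, in 3.38% of the 7458 genes and in 1.55% of all 32851 windows. The kappa B site was in 7 of the 35 genes, in 5.50% of the 7458 genes and in 3.90% of all windows. The CArG box, read by serum response factor, was in 3 of the 35 genes, in 1.31% of the 7458 genes and in 1.47% of all windows. The AP-1 motif TGANTCA was in 3 of the 35 genes, in 5.18% of the 7458 genes and in 6.75% of all windows. The motif TATAAA was in 6 of the 35 genes, in 7.74% of the 7458 genes and in 12.4% of all windows. These are matches of letters, not measured binding.

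Transcription factors took 5.2, 5.68 and 4.76% of the counts in WT1, WT2 and WT3. Of 303 genes in the list, 239 had at least 10 counts in every pool and 19 had none in any. Bhlhe40, a repressor of the basic helix-loop-helix family, was first in each of the 3 pools, at 612, 565 and 514 CPM per kb. The AP-1 genes Fosb, at 577, 505 and 381, Fos, at 355, 339 and 406, and Jun, at 263, 424 and 407 CPM per kb, were among the next 4 together with the zinc finger gene Klf6, at 331, 489 and 380.5 CPM per kb. The values of neighbours in this order overlapped between pools down to the 17th gene, so the order within it rests on the mean only. Nr4a1, Irf4 and Nr4a3 followed. The orphan nuclear receptors Nr4a1 and Nr4a3, induced by the T cell receptor, stood at 307, 332 and 285 and at 309.6, 308 and 294 CPM per kb, with Nr4a3 the more even of the pair. Irf4, which effector Treg cells require, stood at 239, 415 and 261 CPM per kb, highest in WT2.

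**Figure D2:**
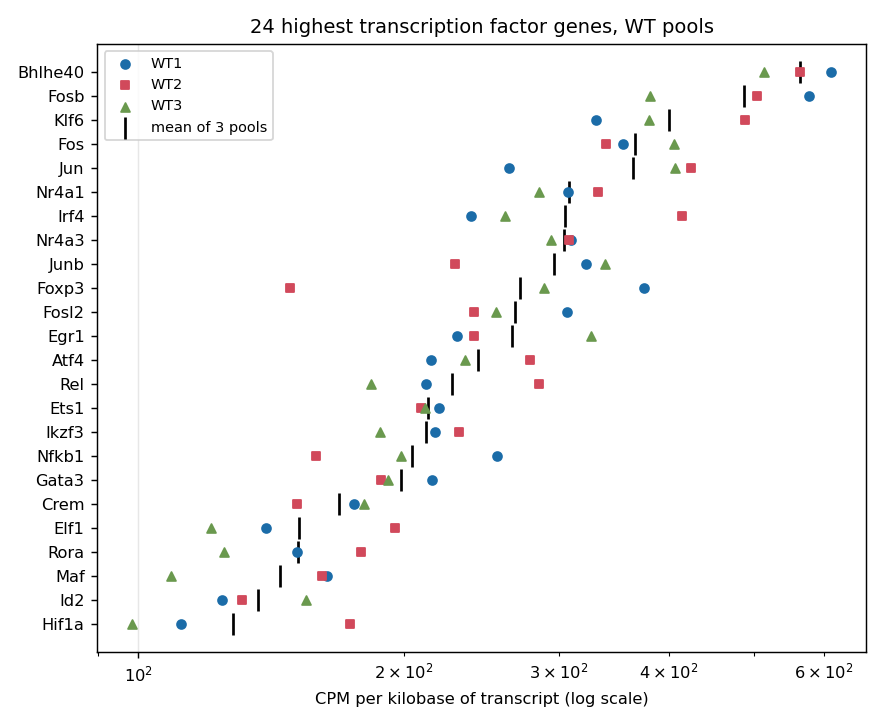
CPM per kb of the 24 highest transcription factor genes (log scale), with 1 symbol per pool and a bar at the mean. Bhlhe40 leads in every pool, and Foxp3 has its lowest value, 149 CPM per kb, in WT2.

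Foxp3 was the tenth of the 303 factors by its mean of 271 ± 114 CPM per kb (SD, n = 3). It was the 3rd in WT1, the 23rd in WT2 and the 9th in WT3. By the mean of the other 2 pools it was number 6 without WT2 and number 14 without WT1. The AP-1 members Junb, at 323, 229 and 339, and Fosl2, at 306, 241 and 255 CPM per kb, and the zinc finger gene Egr1, at 229.9, 241 and 326 CPM per kb, completed the first 12. Of the first 12 factors, 9, all but Bhlhe40, Irf4 and Foxp3, were also on the list of immediate early genes. That list has 45 genes, and some of them, such as Dusp1, Rgs1 and Hspa1a, are not transcription factors. Fewer than 45 of the 303 factors are therefore on it. Their number is not given here, so the 9 of 12 cannot be set against the share over all factors. The list of immediate early genes was chosen with earlier results of these data known. Of the Ikaros zinc finger family, to which Helios belongs, Ikzf3 was at 217, 231 and 188, Ikzf2 at 104, 147 and 86.1 and Ikzf4 at 34.7, 26.3 and 36.2 CPM per kb. Ikzf3, which encodes Aiolos, lay above Ikzf2 in every pool on this scale, although Ikzf2, with a transcript of 9278 bases, had more counts.

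Factors known from tissue Treg cells came next. Gata3, a factor of type 2 immunity that also stabilises tissue Treg cells, stood at 215, 188 and 192 CPM per kb, the 18th of the factors, and its lowest pool lay above the highest pool of the next gene, Crem. Rora, the nuclear receptor ROR alpha, stood at 152, 179 and 125 CPM per kb, and Maf, which promotes Il10 expression in T cells, at 164, 161 and 109 CPM per kb. Batf, an AP-1 partner of Irf4, was at 161, 83.5 and 111 CPM per kb and Prdm1, which encodes Blimp-1, at 70.2, 96.8 and 71.0 CPM per kb. Pparg, a factor of fat tissue Treg cells, stood at 2.21, 4.42 and 4.67 CPM per kb. Of STAT genes, which carry cytokine signals, all 7 members had at least 10 counts in every pool, and Stat3 stood at 104, 123 and 91.3 CPM per kb. Tbx21, the T-bet gene of type 1 T cells, stood at 3.07, 1.49 and 4.61 CPM per kb, and Eomes had 0, 13 and 0 counts. Factors of resting T cells were lower than Gata3, with Tcf7 at 19.6, 29.3 and 36.0 and Lef1 at 21.7, 33.2 and 13.7 CPM per kb.

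At least 10 counts in every pool were found in 239 of the 303 factors, against 10162 of all 32090 genes. By family, 34 of 40 bZIP and AP-1 genes, 40 of 49 KLF, SP and EGR genes and 20 of 31 nuclear receptors passed. The same held for 37 of 45 bHLH and E2F genes, 9 of 9 interferon regulatory factors, 9 of 10 NF-kB and NFAT genes and 13 of 14 forkhead genes. It held for 1 of 5 GATA factors, where Gata3 alone passed and 3 had no count. Median levels over all members of a family ran from 0 CPM per kb for GATA factors and 2.36 for HMG and TCF genes to 42.9 for STAT genes, 41.3 for NF-kB and NFAT genes and 77.1 CPM per kb for the 6 genes of Foxp3 and the Ikaros family.

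Surface receptors took 5.54, 5.24 and 4.96% of the counts, and 243 of the 309 found had at least 10 counts in every pool. MHC class I genes, which present peptides on nearly all cells, led them. B2m, the common light chain, was first in each pool at 2773, 2966 and 3285 CPM per kb, and its range did not overlap that of the second gene. H2-Q7 at 2094, 1739.7 and 1173, H2-K1 at 1572, 974 and 1182, H2-D1 at 802, 629.5 and 727 and H2-Q6 at 989.9, 607 and 548 CPM per kb were also in the first 7. The H2-Q genes are near-identical, so the split of reads among them is uncertain.

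The highest receptor outside MHC class I was Ctla4, number 3 of the list at 1453 ± 207 CPM per kb (SD, n = 3). Its 3 values of 1670.0, 1258 and 1429 CPM per kb lay above those of every other coinhibitory or costimulatory receptor. Icos, the inducible costimulator, was at 656, 663 and 484 CPM per kb and Tigit, an inhibitory receptor for poliovirus receptor family ligands, at 431, 412 and 454 CPM per kb. Pdcd1, which encodes PD-1, stood at 85.1, 63.1 and 113 and Lag3 at 36.1, 16.2 and 33.7 CPM per kb, and Havcr2, which encodes TIM-3, at 75.9, 59.4 and 69.1 CPM per kb. Cd28 stood at 263, 306 and 263 CPM per kb. The TNF receptor genes of Treg cells were close to each other. Tnfrsf9, which encodes 4-1BB, was at 379.9, 275 and 258, Tnfrsf18, which encodes GITR, at 346, 208 and 289 and Tnfrsf4, which encodes OX40, at 289, 218 and 326 CPM per kb, and their ranges overlapped.

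Cytokine receptor genes were led by Ifngr1, a chain of the interferon gamma receptor, at 597, 512 and 466 CPM per kb, and Il2rg, the common gamma chain, at 470.1, 350.0 and 412 CPM per kb. Il2rb at 280.3, 218 and 177 and Il2ra at 175, 267 and 198 CPM per kb completed the high-affinity interleukin-2 receptor. Il1rl1, which encodes the interleukin-33 receptor ST2, stood at 119.8, 126 and 81.2 CPM per kb, and Il7r at 84.0, 104 and 87.5 CPM per kb. Il23r, the receptor gene that is floxed in the other group of the series, stood at 8.12, 15.5 and 5.15 CPM per kb, with 206, 373 and 240 counts. Its mean was 9.58 CPM per kb. The median was 9.66 over all 58 cytokine receptors and 14.2 CPM per kb over those with at least 10 counts in every pool. Klrg1, a lectin receptor of terminally differentiated tissue Treg cells, ranged from 153 CPM per kb in WT2 to 265 in WT1. Lilrb4a, an inhibitory receptor with a close paralog, stood at 563, 508 and 226 CPM per kb, lowest in WT3. Ly6e, a lipid-anchored surface protein, was at 421, 412 and 459.6 CPM per kb.

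At least 10 counts in every pool were found in 243 of the 309 receptor genes, against 10162 of all 32090 genes. By role, they were found in 30 of 33 T cell receptor and coreceptor genes and 24 of 27 coinhibitory and costimulatory genes. The same held for 46 of 58 cytokine receptors and 15 of 20 TNF receptors. They were found in 18 of 21 chemokine receptors, 31 of 35 adhesion genes, 32 of 50 other G protein-coupled receptors and 8 of 15 pattern recognition and Fc receptors. The medians over all members were 166 CPM per kb for MHC class I, 65.2 for T cell receptor and coreceptor genes, 9.66 for cytokine receptors and 4.68 CPM per kb for other G protein-coupled receptors.

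**Figure D3:**
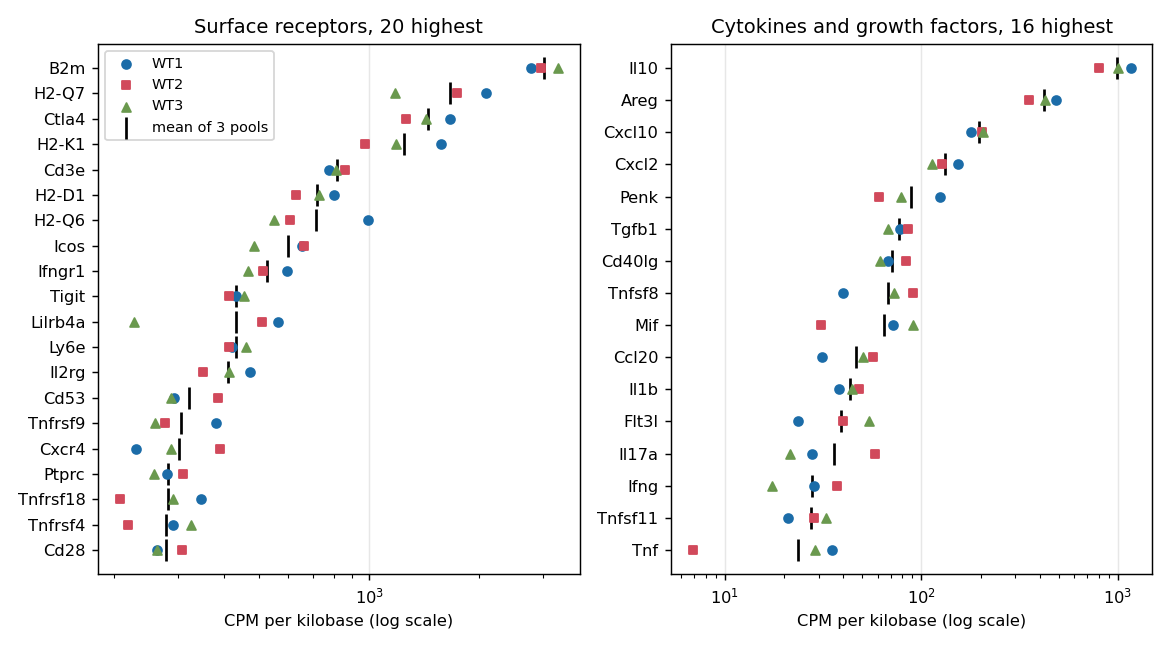
CPM per kb (log scale) of the 20 highest surface receptor genes and the 16 highest cytokine and growth factor genes, with 1 symbol per pool and a bar at the mean. Il10 and Areg are separated from each other and from all other cytokine genes in every pool.

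Chemokine receptors guide Treg cells into and within tissues, and Cxcr4 led the 21 genes at 229.8, 389 and 287 CPM per kb. Ccr4, a receptor of skin and tissue homing, was more even at 253, 274 and 281 CPM per kb, followed by Ccr2 at 212, 251 and 205 and Ccr8, typical of activated tissue Treg cells, at 119, 283 and 189 CPM per kb. The gut-homing receptor gene Ccr9 stood at 26.3, 19.8 and 31.3 CPM per kb and Gpr15, which directs T cells to the colon, at 37.0, 28.8 and 56.3 CPM per kb. Of the genes by which resting cells recirculate, Ccr7 stood at 27.8, 41.5 and 52.8 and S1pr1 at 21.6, 17.4 and 19.6 CPM per kb. The integrin genes Itgb7 at 68.9, 57.5 and 66.7 and Itga4 at 53.4, 77.4 and 67.1 CPM per kb, whose products pair for gut homing, were above Itgae at 33.0, 22.8 and 35.3 CPM per kb in each pool. Nt5e, the CD73 ectoenzyme that makes adenosine, was at 104, 105 and 81.9 CPM per kb, and Entpd1, the CD39 enzyme upstream of it, at 12.2, 7.78 and 9.86 CPM per kb. These genes of gut homing and of adenosine production were all detected, and their pools lay within 2-fold of each other. They were chosen after their values were seen, and 4605 of all 9334 genes of mean CPM at least 5 were over 2-fold. The chemokine receptor gene Ccr6, not among them, stood at 13.4, 7.89 and 18.6 CPM per kb, a range of 2.36-fold. Ffar2, a receptor for short-chain fatty acids, had 1, 13 and 2 counts.

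The cytokine, chemokine and growth factor genes took 0.397, 0.364 and 0.393% of the counts. By family, 13 of 45 interleukin genes, 10 of 35 chemokine genes, 10 of 17 TNF family ligands and 1 of 5 interferons had at least 10 counts in every pool. Of all 144 genes, 48 had at least 10 counts in every pool and 39 had 0 counts in all 3. Of all 32090 genes of any kind, these numbers were 10162 and 15213. A count of 0 allows up to 3 counts, or 0.294, 0.31 and 0.16 CPM across WT1, WT2 and WT3. Il10 was first in every pool at 987 ± 179 CPM per kb (SD, n = 3), and 31st of all genes. Areg, the tissue-repair growth factor amphiregulin, was second in every pool at 486, 352 and 426 CPM per kb. Next came the chemokine genes Cxcl10, a ligand of Cxcr3, at 179, 203 and 205, and Cxcl2, which draws neutrophils, at 154, 128 and 113 CPM per kb. No pool of Cxcl2 reached the lowest pool of Cxcl10, and the same held for Cxcl10 below Areg and for Areg below Il10.

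Below these the pools overlapped. Penk, the enkephalin precursor, stood at 125, 60.8 and 78.3 CPM per kb, Tgfb1, the latent regulatory cytokine, at 78.2, 85.4 and 67.4 CPM per kb, and Cd40lg at 68.0, 83.8 and 61.3 CPM per kb. Tnfsf8, the ligand of CD30, stood at 40, 90.2 and 72.3 and Mif at 71.7, 30.8 and 90.6 CPM per kb. Ccl20, the ligand of Ccr6, was at 31.4, 56.6 and 50.7, Il1b at 38.0, 48.1 and 44.2 and Flt3l at 23.4, 39.9 and 54.1 CPM per kb. Genes of effector helper cytokines were far lower than Il10 but not absent. Il17a stood at 27.9, 57.8 and 21.5 and Ifng at 28.3, 37.1 and 17.3 CPM per kb, while Il5 had 219, 191 and 179 counts, Il13 194, 94 and 238 and Il22 180, 82 and 133. Il4 had 18, 8 and 59 counts and Il2, which Foxp3 represses, had 7, 0 and 196 counts, nearly all in WT3. Ccl5, a chemokine of effector T cells, had 133, 1 and 192 counts, and Tnf had 585, 109 and 881 counts, so both were lowest in WT2. Of the cytolytic genes, Gzmb, granzyme B, stood at 691, 479 and 486 CPM per kb, the granule proteoglycan gene Srgn at 386, 437 and 333 CPM per kb, and Prf1, perforin, had 8, 0 and 0 counts. Granzyme B was thus abundant in pools where perforin was at or near 0.

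The pools agreed best in abundant genes. Across the 9334 genes of mean CPM at least 5, Pearson's r of log2(CPM + 0.5) was 0.85 for WT1 with WT3, 0.81 for WT1 with WT2 and 0.81 for WT2 with WT3. Spearman's rho was 0.87, 0.84 and 0.82 in that order. These are correlations across genes, which are not independent replicates, and they describe the libraries only. The closest pair, WT1 and WT3, came from batches A and B and had RNA integrity numbers of 8.2 and 8.3. WT2 came from batch B and had one of 5. The parts of batch, RNA integrity and mice in these values cannot be told apart. Of the 100 genes of highest CPM in a pool, 73 were shared by all 3 pools, as were 386 of 500 and 751 of 1000. The biological coefficient of variation, edgeR's estimate of the spread between pools beyond counting noise, was 0.75 at a mean of 5 to 20 CPM. It was 0.43 at 20 to 100 CPM, 0.27 at 100 to 1000 CPM and 0.26 above.

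A gene is counted as uneven where its highest pool was over 2-fold above its lowest, with 0.5 CPM added to each. This held for 4605 of the 9334 genes, or 49.3%. The share fell from 72.1% at 5 to 20 CPM to 17.5% at 100 to 1000 CPM. WT2 lay over 2-fold below both other pools in 9.76% of genes and over 2-fold above both in 6.62%. WT1 lay below in 4.16% and above in 5.53%, and WT3 below in 6.6% and above in 4.06%. WT2, the pool of RNA integrity 5, thus stood apart in the most genes. Without it, 2224 genes were uneven between WT1 and WT3, against 2948 without WT1 and 2829 without WT3. A range over fewer pools is smaller by construction. Genes with 0 counts in 1 pool and at least 10 in each other pool numbered 221 for WT2, 101 for WT1 and 95 for WT3.

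Set against 49.3% of all genes, 72 of 233 transcription factors, 92 of 238 surface receptors and 27 of 42 cytokine genes of mean CPM at least 5 were uneven. The counts were 2 of 20 for the GATA3 and ST2 tissue Treg genes, 6 of 27 for the Treg core genes and 7 of 45 for immediate early genes. They were 6 of 41 for actin cytoskeleton genes, 39 of 80 for ribosomal protein genes, 40 of 69 for nuclear oxidative phosphorylation genes and 6 of 13 for mitochondrially encoded genes. These shares move with abundance, and the ribosomal protein and mitochondrially encoded genes, at 48.8% and 46.2%, lay above the 17.5% of genes of 100 to 1000 CPM and the 14.6% of genes above that. These are descriptions of the 3 pools. The GATA3 and ST2 tissue Treg genes, led by Il10, Bhlhe40 and Gzmb, took 1.37, 1.37 and 1.21% of the counts in WT1, WT2 and WT3. The Treg core genes took 1.43, 1.21 and 1.19% and the 14 resting T cell genes, led by Il7r, 0.101, 0.144 and 0.112%.

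**Figure D4:**
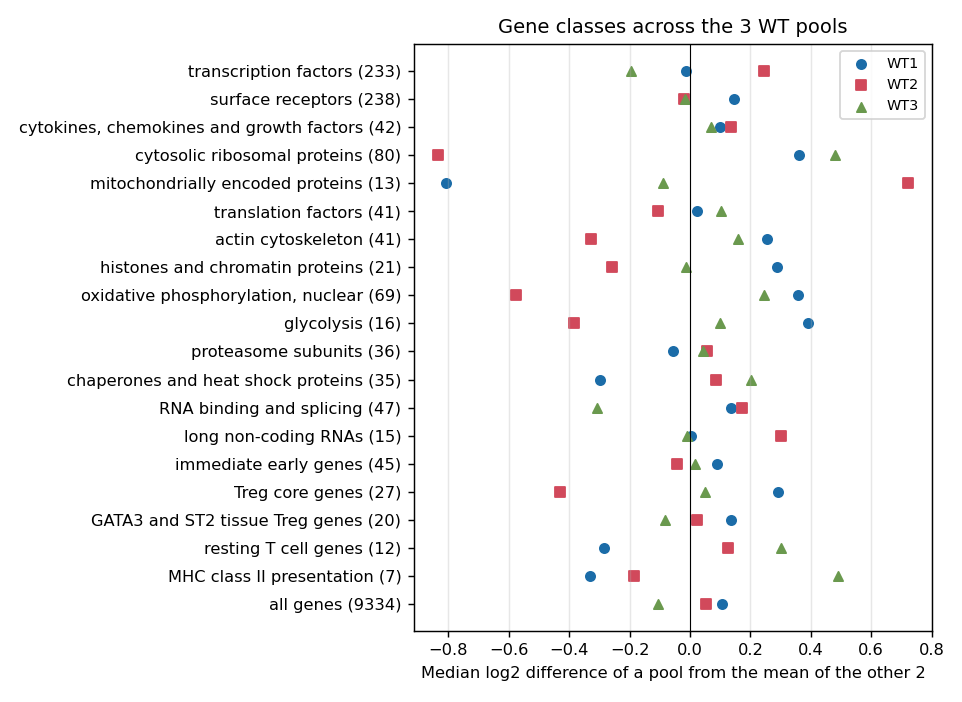
Median log2 difference of each pool from the mean of the other 2, by gene class, with the number of members of mean CPM at least 5 in brackets. Ribosomal protein genes lie at -0.84 and mitochondrially encoded genes at 0.72 in WT2.

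Classes moved together between pools. In WT2, the median log2 difference from the mean of WT1 and WT3 was -0.84 for ribosomal protein genes and -0.58 for nuclear oxidative phosphorylation genes. It was -0.43 for Treg core genes, -0.38 for glycolysis genes and 0.72 for mitochondrially encoded genes, against 0.05 for all genes. Of the 27 Treg core genes, 18 were lowest in WT2, which held 3314 lowest values among all 9334 genes. In WT1 the median was -0.30 for chaperones and -0.81 for mitochondrially encoded genes, against 0.10 for all genes.

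Transcript length and base composition moved with these differences. In transcripts under 1000 bases the median log2 difference of WT2 was -0.39, and in those of 8000 bases or more it was 0.26. In transcripts of under 40% GC it was 0.51, and in those of 60% GC or more -0.46. WT1 and WT3 ran the other way, as they must in part, since each pool is set against the mean of the other 2. Across 9317 genes, Spearman's rho of the WT2 difference was 0.17 with length and -0.31 with GC content, as a description. The transcript of Foxp3 has 55% GC and 3834 bases. Genes of 55 to 60% GC had a median WT2 difference of -0.34, and genes of 2000 to 4000 bases one of 0.01. Foxp3 itself stood at 569 CPM in WT2, against 1439 in WT1 and 1108 in WT3. The part of RNA integrity, length and GC content in the low Foxp3 of WT2 was not tested.

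**Figure D5:**
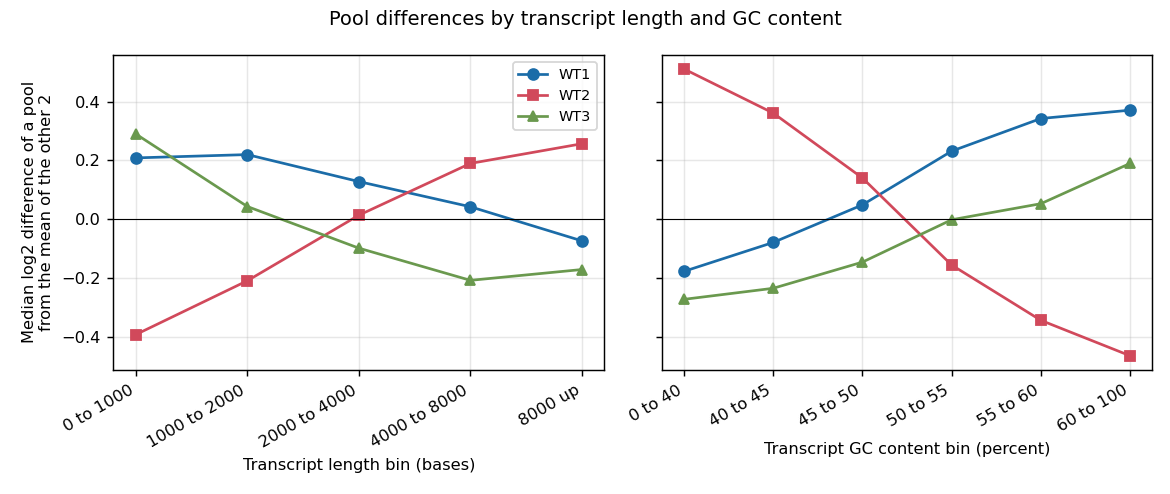
Median log2 difference of each pool from the mean of the other 2, by transcript length (left) and by GC content (right), over genes of mean CPM at least 5. WT2 rises with length and falls with GC content, from 0.51 to -0.46.

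The genes of mean CPM at least 50 with the widest ratio between pools are named by that ratio alone. Pcnt, a centrosome scaffold, was at 179, 18.1 and 115 CPM across WT1, WT2 and WT3, and Efhd2, a calcium-binding actin regulator, at 97.7, 14.2 and 61.0 CPM, both lowest in WT2. Hdac7, a class II histone deacetylase, at 99.1, 17.6 and 106, Ehd1, an endocytic recycling protein, at 85.4, 18.1 and 107, and Grb7, an adaptor, at 72.1, 12.1 and 72.4 CPM were also lowest in WT2. Def6, a guanine nucleotide exchange factor of T cells, at 27.9, 202 and 32.8, Cul4a, a ubiquitin ligase scaffold, at 41.5, 269.9 and 41.4, and Rgl2 at 34.4, 114 and 18.9 CPM were instead highest in WT2. Slc38a1, a glutamine transporter, stood apart in WT3 at 186, 173 and 1127 CPM. The pseudogene row Gm12918, at 479.7, 88.6 and 557 CPM, completed these 10. Of the 10, 7 were lowest and 3 highest in WT2, against 3314 and 3561 of all 9334 genes of mean CPM at least 5. The 7 include Slc38a1, which was nearly as low in WT1 and stood apart only in WT3.

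Markers of other cells of the colon were read for the whole of each list. The plasma cell markers were the exception to low values, and their sum over 7 genes was 2416, 6338 and 9019 CPM across WT1, WT2 and WT3. Igkc, the kappa light chain, was second of all genes per length at 1456, 3655 and 5705 CPM per kb, and Igha, the IgA heavy chain, stood at 573, 1438 and 2082 CPM per kb. Jchain, which joins IgA dimers, stood at 119.9, 518 and 486 CPM per kb. All 3 were lowest in WT1, and Mzb1 and Sdc1, which mark the plasma cell itself, had 61, 16 and 145 and 89, 105 and 101 counts. Of the B cell markers, Ms4a1 had 23, 32 and 36 counts and Cd79a 5, 11 and 304, nearly all of the last in WT3.

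The 10 B cell markers summed to 233, 256 and 335 CPM, most of it Ighm. The 16 myeloid markers summed to 907, 1004 and 966 CPM, most of it Ccr2 at 635, 754 and 615 CPM, which Treg cells can express. Lyz2 was at 45.5, 44.5 and 86.4, C1qb at 28.8, 42.7 and 36.4 and Csf1r at 47.3, 46.4 and 66.7 CPM. The MHC class II genes, made by antigen-presenting cells, were led by Cd74 at 545, 538 and 876 and H2-Aa at 239.6, 419.9 and 376 CPM, both lower in WT1 than in WT3. Of the 16 myeloid markers, 13 had at least 10 counts in every pool, and their part in the levels of genes that macrophages also make, such as Cxcl2, Cxcl10 and Il1b, was not tested. The 17 epithelial markers summed to 41.6, 46.9 and 23.2 CPM, with Epcam at 6.47, 18.1 and 8.81 CPM. The fibroblast list summed to 18.4, 21.6 and 25.8 CPM. For mast cells the sum was 7.55, 11.2 and 9.18 CPM, all of it Kit, with Cpa3 and the 4 other markers at 0. For CD8 T cells it was 4.12, 1.86 and 1.07 CPM. The endothelial sum of 53.4, 35.1 and 68.7 CPM was nearly all Pecam1, which T cells can express, while Cdh5 and Kdr were at 0. For neutrophils and eosinophils the sum was 1.86, 0.826 and 8.06 CPM with S100a8 and S100a9 at 0. For enteric glia and neurons it was 1.18, 0.826 and 1.28 CPM and for red blood cells 1.08, 0.517 and 3.52 CPM. Of the markers of NK cells and innate lymphoid cells, Ncr1 and Klre1 were at 0. In the plasma cell list Tnfrsf17 alone was at 0, and in the myeloid list no marker was. Whether the plasma cell transcripts came from sorted cells or from free RNA was not tested.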

How the data were processed

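RNA of sorted Treg cells was sequenced, and the authors deposited estimated counts per gene row. Per the submitters' processing notes, the tools were Salmon 1.4.0, fastp 0.20.0, DESeq2 1.34.0 and R 4.1.2, in no stated order. The authors' genome build is not given in the sources used here. The same deposited table holds the authors' own contrast of both groups (a mean signal, log2 fold changes, a score and p-values), none of which was used. In a second table, 6 columns match no sample's label and were left out.

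The 32161 rows of the WT columns were summed to 32090 genes by Entrez identifier. CPM is the count divided by the library total and scaled to 1000000. CPM per kb uses the longest GENCODE M21 transcript, matched through RefSeq where possible, which gave a length for 31495 genes. A transcript shorter than that in the cells makes the level too low. Pools were compared with 0.5 CPM added, in genes of mean CPM at least 5. The coefficient of variation came from edgeR 4.0.16, tested on simulated data. RNA integrity, amplification and length bias can shift levels between pools. Totals of 9680503 to 18734331 counts put 3 counts at 0.16 to 0.31 CPM, which covers counting error only. Other scalings, filters, lengths and left-out pools were tried.

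Genes were named as the highest of the whole table and of each list, the defining markers and the most uneven genes. Others, named for a known role in Treg cells, were chosen after their values were seen. The members and lists were chosen with earlier results of these data known. A few genes and results that rest on them are not reported here.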

Additional observations from a re-analysis of the deposited data

How the results depend on the processing

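With 3 pools no test was made, and the wide spread between pools limits the order of genes with close levels. Library sizes scaled by TMM, upper quartile or DESeq2 size factors, and the largest row per gene, kept all 18 summary values close to those reported. Il10 was 1 among cytokines under every setting tried. The place of Foxp3 among transcription factors, 10 as reported, was 6 without WT2, 14 without WT1 and 11 without WT3, 12 by CPM without length and 13 with the shortest transcript. Ctla4 was 1 among receptors by CPM without length and with the shortest transcript.

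Without mitochondrially encoded genes and long non-coding RNAs in the total, receptors took 5.64% and cytokines 0.413% of the counts. With Rn18s-rs5 left out of the total, chosen after seeing the data, 553 genes held 50% of the pooled counts, and transcription factors took 6.08%, receptors 6.14% and cytokines 0.451%. In that setting 37 of the named genes moved by over 1 SD. A count in any pool was found in 16877 genes. Leaving out each pool in turn gave 2224 to 2948 genes over 2-fold, 23.9% to 32.1% of genes, and a lowest Pearson r of 0.79 to 0.84. Fewer pools give a smaller range by construction.

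With mean CPM at least 1, 6960 genes were over 2-fold, WT1, WT2 and WT3 stood apart in 1671, 2470 and 1791 genes, and the lowest r was 0.83. At 20 CPM these were 2039 genes and 250, 583 and 300. With no filter they were 8635 genes and 2141, 2899 and 2210, with r 0.91. A 3-fold limit gave 2292 genes, or 24.6%, and 340, 630 and 403 genes apart. The lowest r was 0.78 with 0.1 CPM added and 0.84 with 2 CPM added. WT2 stood apart in the most genes under each of these filters and limits.

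No paired analysis was possible because a single group was described and no test was made.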
